A study of Mus musculus with 160 samples.

Results

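Cholesterol synthesis and handling genes were followed through 4 tissues of a mouse model of Huntington's disease. They are 34 genes taken by name from a list, out of 39179 genes in the count table, and each symbol matched 1 Ensembl identifier. By role they are 8 genes of the mevalonate steps, 11 of the later sterol steps, 5 of sterol sensing and regulation, 2 liver X receptors, 6 of transport and 2 of turnover and storage. All 34 passed the filter on low counts in every tissue, so none is missing from the results.

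Cholesterol is built from acetyl-CoA through mevalonate and squalene to lanosterol, and then through a series of sterol intermediates. When membrane sterol is low, the escort protein Scap carries the SREBP transcription factors (Srebf1, Srebf2) to the Golgi for activation, and the Insig proteins hold them back when sterol is plentiful. The brain makes its own cholesterol, because that of the blood hardly crosses the blood-brain barrier; glia make much of it, Apoe and Abca1 carry it between cells, and the neuronal enzyme Cyp46a1 turns it into 24S-hydroxycholesterol for export. Liver X receptors respond to such oxysterols and raise genes of sterol efflux.

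R6/2 mice, labelled Tg(HDexon1)62Gpb, carry a transgene for exon 1 of human huntingtin, with a lengthened CAG repeat and driven by the human promoter, on a C57BL/6J background. R6/2 animals and wild-type (WT) animals of 12 weeks had each received by mouth, once, CHDI-00340246 at 10 mg/kg (it blocks kynurenine 3-monooxygenase, an enzyme of tryptophan breakdown) or the vehicle, and tissue was taken 6 h later. The vehicle was HP-β-CD, a cyclodextrin, in citrate buffer. Striatum, cortex, cerebellum and liver were sequenced from 4 groups, namely R6/2 given the drug, R6/2 given vehicle, WT given the drug and WT given vehicle, with 10 libraries a group and tissue, 5 per sex, 160 in all. Which libraries come from the same animal is not in the labels, and the p-values cover only the spread among these libraries.

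Library totals ran from 28471097 to 46301273 estimated counts. The sex label matched the sex-linked genes in 160 of 160 libraries. The summed level of 11 hepatocyte markers ran from 96790 to 144000 CPM in the vehicle liver libraries and from 12.3 to 170 CPM in the vehicle brain libraries, and 5 striatal markers summed to 1308 to 1844 CPM in R6/2 striatum, against 3846 to 4618 CPM in WT striatum. CPM are estimated counts brought to a common library total, with TMM scaling within a tissue. The liver libraries WT vehicle male 5 and WT drug male 4 lay farthest from their group and sex, at 0.684 and 0.619 (root mean square difference of log2 CPM), against 0.527 for the next and 0.401 for the median liver library. In the cerebellum, WT drug male 5 lay at 0.533, against 0.425 for the next and 0.354 for the median. A summed level of 6 choroid plexus markers ran from 11.8 to 2891 CPM over the vehicle cerebellum libraries. The counts of genes passing for genotype under vehicle, for the drug and between tissues were repeated without the far libraries.

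Promoter sequence was examined because many of these genes moved together in the brain. The 4 stretches below belong to the genes whose results lead the account. Each is the 250 bases before the RefSeq start site (GRCm38.p6), 5′ to 3′ on the gene's strand. Capitals mark the sterol regulatory element searched as TCACNCCAC, the NF-Y box CCAAT and the E-box CACGTG, on either strand, so that ATTGG is a CCAAT of the other strand.

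Hmgcs1, chr13:119690101-119690350, + strand: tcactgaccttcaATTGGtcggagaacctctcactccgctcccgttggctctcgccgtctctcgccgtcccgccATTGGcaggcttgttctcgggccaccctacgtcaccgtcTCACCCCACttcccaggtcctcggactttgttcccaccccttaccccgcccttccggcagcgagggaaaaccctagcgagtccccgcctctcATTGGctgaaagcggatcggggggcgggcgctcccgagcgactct

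Idi1, chr13:8885356-8885605, + strand: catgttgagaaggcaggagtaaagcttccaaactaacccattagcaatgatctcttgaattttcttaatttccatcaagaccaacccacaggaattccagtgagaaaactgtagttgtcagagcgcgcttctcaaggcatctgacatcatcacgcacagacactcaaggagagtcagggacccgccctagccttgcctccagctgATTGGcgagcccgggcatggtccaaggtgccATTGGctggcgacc

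Msmo1, chr8:64733579-64733828, - strand: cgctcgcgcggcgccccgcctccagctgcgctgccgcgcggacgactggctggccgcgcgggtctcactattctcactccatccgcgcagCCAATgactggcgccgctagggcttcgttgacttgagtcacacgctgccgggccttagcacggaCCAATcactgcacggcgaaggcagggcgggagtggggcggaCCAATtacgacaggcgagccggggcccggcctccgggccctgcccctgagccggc

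Insig1, chr5:28071162-28071411, + strand: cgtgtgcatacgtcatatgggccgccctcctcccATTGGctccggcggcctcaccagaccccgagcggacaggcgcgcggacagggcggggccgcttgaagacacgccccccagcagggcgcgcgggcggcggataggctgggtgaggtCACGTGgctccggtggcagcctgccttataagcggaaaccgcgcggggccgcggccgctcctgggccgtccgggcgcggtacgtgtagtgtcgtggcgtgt

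In the RefSeq windows of 250 bases before to 50 after a start, 28 of the 34 genes had an entry. CCAAT was present in 22 of the 28 (78.6%), against 41.1% of 27025 genes with a window. It was in 6 of 7 genes of the mevalonate steps and in 9 of 9 of the sterol steps. The E-box was in 6 of the 28 (21.4%), against 8.09% of genes. A gene with several start sites had several windows, and a match in any of them counted. By window, CCAAT was in 23 of 39 windows of these genes, against 37.4% of 32851 windows. The E-box was in 7 of the 39, against 7.15% of windows. Hmgcs1 alone held the sterol regulatory element (3.6%, against 1.44% of genes), and the DR4 repeat of the liver X receptors was in 0 of the 28, against 0.1% of genes. In the 4 printed stretches no match overlaps a match of another motif. A match is only a match of letters in this window.

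Levels across tissues were read first in the WT vehicle animals. Between genes they are compared as FPKM, which is scaled by gene length. Apoe, the main lipid carrier of the brain, was the highest of the 34 in every tissue, at 823 ± 96.6 FPKM in the striatum, 680 ± 85.1 in the cortex, 559 ± 96.96 in the cerebellum and 9948 ± 1944 in the liver (SD, n = 10 each). In the striatum Cyp46a1 came next with 90.4 ± 6.57 FPKM, before Hmgcs1 with 54.1 ± 5.86 and Msmo1 with 43.3 ± 4.15. In the cortex the order of Hmgcs1 (100 ± 8.31 FPKM) and Cyp46a1 (74.4 ± 6.40) was turned round. In the cerebellum Cyp46a1 stood at 13.1 ± 0.833 FPKM, within the SDs of Acat2 (13.7 ± 1.17) and Sqle (12.9 ± 1.72). In the liver Sc5d (206 ± 61.3 FPKM), Fdps (203 ± 69.1) and Msmo1 (171 ± 67.3) followed Apoe and did not differ beyond their spread. Nr1h3, 1 of the liver X receptors, was the lowest of the 34 in the striatum (1.59 ± 0.335 FPKM) and the cortex (1.37 ± 0.224), Soat1 in the cerebellum (4.06 ± 0.482) and in the liver (0.742 ± 0.236).

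The brain was set against the liver in a fit of all 160 libraries (edgeR's quasi-likelihood test, called at an adjusted p under 0.05). The brain level is the mean of the log2 levels of the 3 regions. Of the 34 genes, 29 were lower in that mean than in the liver and 4 were higher. Over the 19446 genes tested, 40.5% were lower and 50.3% higher. The largest differences were those of Nr1h3 (log2 -5.31 ± 0.05, SE), Apoe (-5.00 ± 0.07) and the sterol isomerase Ebp (-4.86 ± 0.04). Abcg1, an efflux transporter, was higher in the brain (2.68 ± 0.06), as were Ggps1, which makes geranylgeranyl diphosphate (1.598 ± 0.054), Soat1, which esterifies sterol (1.41 ± 0.09), and Srebf2, the main SREBP gene of sterol synthesis (0.26 ± 0.05). Cyp46a1 did not pass (0.61 ± 0.41, edgeR adjusted p = 0.15). The scale bears on these sizes: the median gene stood at 0.27 in this fit and at 1.11 by FPKM. By FPKM 28 of the 34 were below 0 and 6 above, and Nr1h2, the other liver X receptor, was the only 1 whose direction turned (-0.57 in the fit, 0.65 by FPKM).

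The vehicle groups show what differed between R6/2 and WT. In the striatum 17 of the 34 genes fell and 5 rose, against 26.5% and 29.7% of the 17494 genes tested (edgeR's quasi-likelihood test, adjusted p under 0.05 over all genes of the tissue). In the cortex 21 fell and 6 rose, against 26.9% and 28.1% of 17554 genes. The cerebellum had 15 that fell and 9 that rose, against 26% and 26.3% of 17206 genes. In the liver 4 fell and 3 rose, against 12.8% and 12.9% of 15145 genes. The share that rose is below the background in the striatum and the cortex and near it in the cerebellum, and the liver counts are near theirs in both directions. These shares of all genes are also the background for the counts by role and by list below, many of which rest on few genes. The 34 genes and the lists were chosen with earlier results of these data known, so these comparisons are not independent. On the FPKM scale, tested with limma, the split moved to 15 lower and 10 higher in the striatum, 20 and 10 in the cortex, 11 and 10 in the cerebellum and 1 and 5 in the liver, while the median gene shifted to 0.107, 0.066, 0.05 and 0.105. The shares of all genes called on the FPKM scale are not given here, so these splits have no background of their own. The FPKM fit had no sex term and no TMM scaling, unlike the edgeR fit. The median log2 fold change of the 34 was -0.18 in the striatum, -0.31 in the cortex, -0.14 in the cerebellum and -0.13 in the liver, while the median gene lay between 0.006 and 0.018. By FPKM the median of the 34 was near 0 in the striatum (-0.011), -0.21 in the cortex, -0.05 in the cerebellum and above 0 in the liver (0.08). The liver median was above 0 among drug-given animals (0.107) and in males alone (0.032) too. Acat2, Hmgcs1, Idi1, Fdft1, Cyp51, Msmo1, Nsdhl, Dhcr7, Insig1 and Stard4 fell in all 3 brain regions (10 of 34, against 10.1% of the 16469 genes tested in the 3). Srebf1 and Abca1 rose in all 3 (2 of 34, against 12.5% of genes). Mvd, Nr1h3, Apoe and Cyp46a1 passed in all 3 with directions that differed between regions (4 of 34, against 4.35% of genes). R6/2 and WT libraries did not overlap for 12 of the 34 in the striatum, 16 in the cortex and 10 in the cerebellum. In the liver all 34 overlapped. Over all genes, every R6/2 library lay below every WT library for 9.39%, 7.94%, 9.67% and 0.27% in these 4 tissues. The shares with every R6/2 library above were 7.72%, 6.19%, 7.55% and 0.3%.

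**Figure D1:**
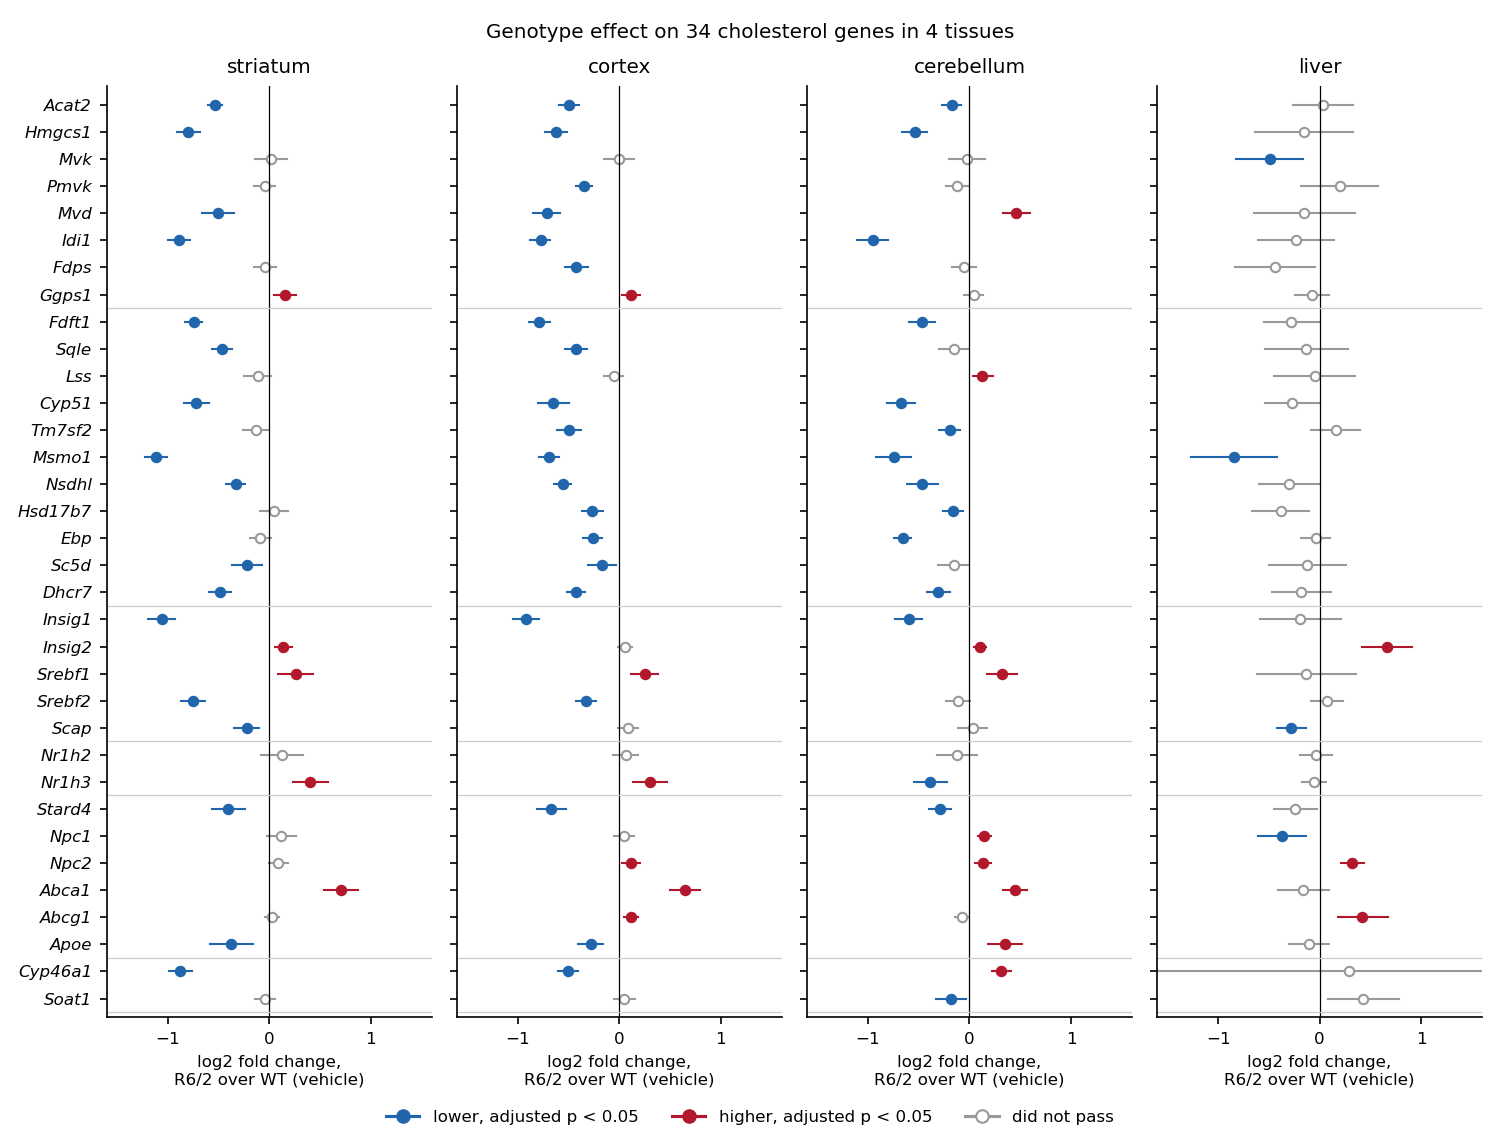
Log2 fold change of R6/2 over WT under vehicle (x axis) for the 34 genes (rows, in 6 blocks by role from mevalonate steps at the top to turnover and storage at the bottom) in 4 tissues; points are the edgeR estimates, bars 95% intervals cut at the axis ends, filled colours mark an adjusted p under 0.05. Most synthesis genes lie left of 0 in the 3 brain regions, and the liver bars are wider, widest for Cyp46a1.

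The mevalonate steps lead from acetyl-CoA to the isoprenoid building blocks. Of the 8 genes, 4 fell in the striatum, 6 in the cortex, 3 in the cerebellum and 1 in the liver, while 1 rose in each brain region and 0 in the liver. Idi1, which isomerises isopentenyl diphosphate (ENSMUSG00000058258, chromosome 13, 8885501 to 8892451, GENCODE M21 on GRCm38), ran from 23.6 to 33.9 CPM with a median of 27.9 in R6/2 striatum, against 44.3 to 61.7 CPM with a median of 50.4 in WT striatum. All 10 R6/2 libraries lay below all 10 WT libraries. The log2 fold change was -0.89 ± 0.06 (SE, edgeR adjusted p = 6.5e-16). Its cortex values were 35.7 to 48.3 CPM with a median of 41.4 in R6/2, against 63.9 to 83.1 CPM with a median of 69.3 in WT (-0.78 ± 0.05, edgeR adjusted p = 1.4e-15). Its cerebellum values were 26.5 to 35.5 CPM with a median of 31.6 in R6/2, against 50.7 to 76.7 CPM with a median of 62.7 in WT (-0.95 ± 0.08, edgeR adjusted p = 4.5e-13). The groups did not overlap there either.

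Hmgcs1, which makes HMG-CoA (ENSMUSG00000093930, chromosome 13, 119690379 to 119708260) fell in the 3 brain regions. In R6/2 striatum it ran from 92.6 to 116.6 CPM with a median of 108.2, against 150 to 210 CPM with a median of 182 in WT striatum (log2 -0.80 ± 0.06, edgeR adjusted p = 3.3e-14). In R6/2 cortex it ran from 197 to 226 CPM with a median of 219, against 275 to 377 CPM with a median of 332 in WT cortex (-0.62 ± 0.05, edgeR adjusted p = 2e-12). The cerebellum gave 100.2 to 117.8 CPM with a median of 108.95 in R6/2, against 121.9 to 188 CPM with a median of 158.1 in WT (-0.54 ± 0.06, edgeR adjusted p = 3.4e-09). R6/2 and WT libraries were separate in each of these regions. In the liver the ranges lay over each other, at 217 to 556 CPM with a median of 405 in R6/2, against 216 to 743 CPM with a median of 459 in WT, and the difference did not pass (-0.15 ± 0.25, edgeR adjusted p = 0.69).

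Mvd, the mevalonate diphosphate decarboxylase (ENSMUSG00000006517, chromosome 8, 122433601 to 122443422), went opposite ways in the brain. In the striatum it fell by 0.51 ± 0.08 on the log2 scale and in the cortex by 0.71 ± 0.07 (edgeR adjusted p = 9.4e-07 and 4.2e-11). In R6/2 cerebellum it ran from 17.4 to 24.7 CPM with a median of 19.96, against 12.5 to 16.8 CPM with a median of 14.8 in WT cerebellum, with every R6/2 library above every WT library (0.46 ± 0.07, edgeR adjusted p = 4.5e-07). Acat2, a thiolase that joins acetyl-CoA units, fell in the striatum (-0.54 ± 0.03), the cortex (-0.50 ± 0.05) and the cerebellum (-0.175 ± 0.048). Pmvk and Fdps, a kinase and a prenyl transferase of the path, fell in the cortex (-0.35 ± 0.04 and -0.43 ± 0.06) and did not pass in the other tissues. Ggps1 rose by 0.15 ± 0.05 in the striatum and 0.12 ± 0.04 in the cortex, calls that were lost without replicate 1 (edgeR adjusted p = 0.1) in the striatum and without replicate 2, 3 or 4 (0.14, 0.088 and 0.059) or the farthest library (0.051) in the cortex.

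Mvk, the mevalonate kinase (chromosome 5, 114444269 to 114460591), was the 1 gene of these steps that passed in the liver and in no brain region. It ran from 10.8 to 21.96 CPM with a median of 17.7 in R6/2 liver, against 13.7 to 41.3 CPM with a median of 24.2 in WT liver (-0.49 ± 0.17, edgeR adjusted p = 0.03). The ranges overlapped, and 2 R6/2 libraries lay below all WT libraries. The call was lost without replicate 3, 4 or 5 (edgeR adjusted p = 0.1, 0.1 and 0.072). Among animals given the drug the liver difference of Mvk was -0.04 (edgeR adjusted p = 0.89), and by FPKM it was -0.26 (limma adjusted p = 0.21).

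The sterol steps lead from squalene synthesis to the last double bonds of cholesterol. Of the 11 genes, 7 fell in the striatum, 10 in the cortex, 8 in the cerebellum and 1 in the liver. Lss, the cyclase that makes lanosterol, rose in the cerebellum (0.13 ± 0.05, edgeR adjusted p = 0.032, lost without replicate 1, 2, 4 or 5, with 0.077, 0.075, 0.075 and 0.092), and 0 rose in the other tissues. Msmo1, the methylsterol monooxygenase (ENSMUSG00000031604, chromosome 8, 64718139 to 64733792), was the 1 gene of the 34 that fell in all 4 tissues. It ran from 37.3 to 47.8 CPM with a median of 41.2 in R6/2 striatum, against 74.7 to 99.8 CPM with a median of 93.3 in WT striatum. Every R6/2 library was below every WT library. This was the largest fall among the 34 in the striatum (log2 -1.12 ± 0.05, edgeR adjusted p = 7e-20).

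In the cortex the log2 fold change of Msmo1 was -0.69 ± 0.05 (edgeR adjusted p = 2.3e-14). In the cerebellum it ran from 24.1 to 32.4 CPM with a median of 27.6 in R6/2, against 33.9 to 59.7 CPM with a median of 46.9 in WT (-0.75 ± 0.09, edgeR adjusted p = 2.5e-09), again with no overlap. In the liver it ran from 117.9 to 300 CPM with a median of 211 in R6/2, against 174 to 655 CPM with a median of 312 in WT (-0.85 ± 0.22, edgeR adjusted p = 0.0042). The liver groups overlapped, and 3 of 10 R6/2 libraries lay below all WT libraries. Among animals given the drug, the liver difference of Msmo1 was -0.28 ± 0.22 and did not pass (edgeR adjusted p = 0.36).

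Fdft1, the squalene synthase, ran from 44.02 to 59.03 CPM with a median of 54.9 in R6/2 cortex, against 78.6 to 100.8 CPM with a median of 92.6 in WT cortex, and the groups were separate (-0.79 ± 0.05, edgeR adjusted p = 4e-15). It fell in the striatum by 0.74 ± 0.04 and in the cerebellum by 0.47 ± 0.07. Cyp51, the lanosterol demethylase, ran from 28.5 to 36.3 CPM with a median of 31.6 in R6/2 cerebellum, against 40.8 to 60.8 CPM with a median of 49.99 in WT cerebellum (-0.67 ± 0.07, edgeR adjusted p = 1e-10). Those groups did not overlap, and Cyp51 fell by 0.72 ± 0.06 in the striatum and 0.65 ± 0.08 in the cortex. Ebp fell most in the cerebellum (-0.66 ± 0.04), less in the cortex (-0.26 ± 0.05), and did not pass in the striatum (-0.09 ± 0.05). The reductase Tm7sf2 fell in the cortex (-0.49 ± 0.06) and the cerebellum (-0.19 ± 0.05), where the call was lost by FPKM (-0.04, limma adjusted p = 0.55) and in males alone (-0.10, edgeR adjusted p = 0.28). Nsdhl and Dhcr7, a dehydrogenase and the last reductase, fell in the 3 brain regions, between -0.31 and -0.56. Sqle, the squalene epoxidase, fell in the striatum (-0.46 ± 0.05) and the cortex (-0.43 ± 0.06). The ketoreductase Hsd17b7 fell in the cortex and the cerebellum and the desaturase Sc5d in the striatum and the cortex, by 0.27 or less. The cerebellum call of Hsd17b7 was lost without replicate 3 or 4 (edgeR adjusted p = 0.081 and 0.09). It stood at -0.02 among drug-given animals (edgeR adjusted p = 0.77) and at -0.05 by FPKM (limma adjusted p = 0.49). The calls of Sc5d were lost by FPKM in both regions (limma adjusted p = 0.18 in the striatum and 0.25 in the cortex), and by edgeR without replicate 2 in the striatum (0.059) and without replicate 3, 4 or 5 in the cortex (0.06, 0.13 and 0.12).

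Averaged by library, the 19 synthesis genes show how closely the groups held together. The value is the mean, over the 19, of log2(CPM + 0.5) minus the gene's mean in the tissue. In the striatum it ran from -0.25 to -0.12 in R6/2 vehicle libraries, against 0.08 to 0.26 in WT vehicle libraries. In the cortex it ran from -0.35 to -0.14 in R6/2, against 0.11 to 0.31 in WT. Both regions show a gap between genotypes. The cerebellum groups touched, at -0.20 to -0.03 in R6/2 and -0.06 to 0.28 in WT. The liver spread was wider and covered both genotypes, at -0.48 to 0.35 in R6/2 and -0.52 to 0.69 in WT.

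**Figure D2:**
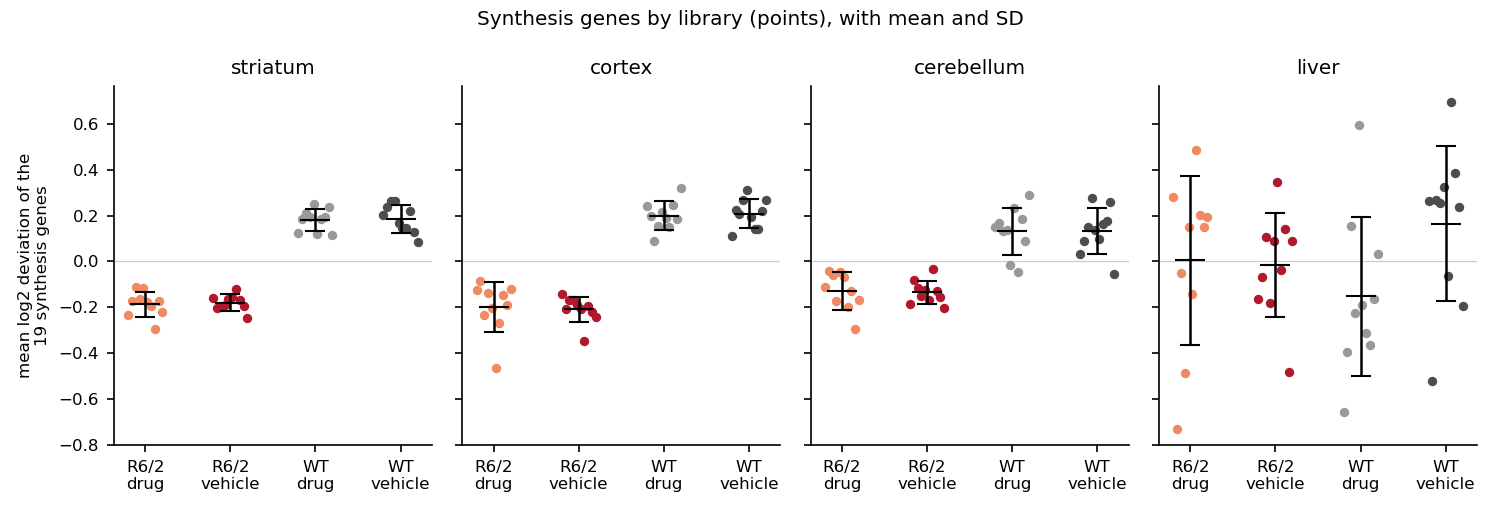
Mean log2 deviation of the 19 synthesis genes from their tissue mean (y axis) for each library, by group (x axis) and tissue; points are libraries, bars the mean ± SD of 10. R6/2 and WT separate in the striatum and the cortex with and without the drug, and the 4 liver groups lie over each other.

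Cell type markers differed between genotypes too, in directions that varied by list and region. Over all genes 26.5%, 26.9%, 26% and 12.8% fell in the striatum, cortex, cerebellum and liver. The shares that rose were 29.7%, 28.1%, 26.3% and 12.9%. Of 12 astrocyte markers, 8 fell and 1 rose in the striatum, 9 fell and 1 rose in the cortex, and 7 fell and 0 rose in the cerebellum. Their summed level ran from 2935 to 3276 CPM in R6/2 striatum, against 4593 to 5503 CPM in WT striatum, from 3316 to 3913 CPM in R6/2 cortex, against 5500 to 6262 CPM in WT cortex, and from 3875 to 4276 CPM in R6/2 cerebellum, against 4988 to 5860 CPM in WT cerebellum. The astrocyte sums did not overlap in any brain region. Of 12 oligodendrocyte markers, 7, 5 and 8 fell in the striatum, cortex and cerebellum and 0 rose, with sums of 7372 to 11610 CPM in R6/2 striatum, against 10520 to 12910 CPM in WT striatum. The cortex sums were 3789 to 4875 CPM in R6/2 and 3672 to 6366 CPM in WT, and the cerebellum sums 3465 to 4427 CPM in R6/2 and 4125 to 7129 CPM in WT. Of 10 neuron markers 7 fell in each brain region, and 2, 1 and 3 rose. Of 12 microglial markers, 4 fell and 1 rose in the striatum, 1 fell and 1 rose in the cortex, and 12 rose in the cerebellum. In the liver, 5 of 11 hepatocyte markers fell and 1 rose, with sums of 118200 to 141200 CPM in R6/2 and 96790 to 144000 CPM in WT. Of 5 Kupffer cell markers 2 rose and 0 fell in the liver, with sums of 193.5 to 378 CPM in R6/2 and 110.1 to 308 CPM in WT. Of 4 liver endothelium markers 2 rose and 0 fell, with sums of 112.3 to 190 CPM in R6/2 and 105.7 to 159.1 CPM in WT. Of the 11 microglial markers tested in the liver 2 rose and 0 fell, with sums over the list of 193 to 375 CPM in R6/2 and 108.8 to 312 CPM in WT. No brain marker of the 4 brain lists was at 0 in a vehicle group. In bulk tissue, fewer cells of a type and less RNA per cell cannot be told apart, and the part of these shifts in the sterol results was not tested.

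Among the genes of sensing and regulation, 3 fell and 2 rose in the striatum, 2 fell and 1 rose in the cortex, 1 fell and 2 rose in the cerebellum, and 1 fell and 1 rose in the liver. Insig1, itself a sterol-responsive target of the SREBPs (ENSMUSG00000045294, chromosome 5, 28071363 to 28078662), ran from 23.6 to 32.8 CPM with a median of 29.4 in R6/2 striatum, against 47.7 to 75.7 CPM with a median of 60.4 in WT striatum (log2 -1.06 ± 0.07, edgeR adjusted p = 2.4e-16). In R6/2 cortex it ran from 36.3 to 53.3 CPM with a median of 44.95, against 75.2 to 101.5 CPM with a median of 86.2 in WT cortex (-0.92 ± 0.07, edgeR adjusted p = 3e-14). The cerebellum gave 43.9 to 63.4 CPM with a median of 52.6 in R6/2, against 66.4 to 104.9 CPM with a median of 80.3 in WT (-0.60 ± 0.07, edgeR adjusted p = 9.2e-10). The groups were apart in all 3 regions. In the liver they overlapped, with 180 to 494 CPM and a median of 381 in R6/2, against 221 to 599 CPM and a median of 439 in WT (-0.19 ± 0.21, edgeR adjusted p = 0.53).

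Insig2, the second retention protein (chromosome 1, 121304353 to 121332589), rose most in the liver. It ran from 90.3 to 191 CPM with a median of 126.7 in R6/2 liver, against 59.9 to 111.9 CPM with a median of 77.9 in WT liver, and 8 of 10 R6/2 libraries lay above all WT libraries (0.67 ± 0.13, edgeR adjusted p = 0.00021). Its rises in the striatum (0.14 ± 0.04) and the cerebellum (0.10 ± 0.03) were smaller and were lost without replicate 4 (edgeR adjusted p = 0.058 and 0.14). The second of these was lost without replicate 5 too (0.057).

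The 2 SREBP genes moved apart. Srebf2 (ENSMUSG00000022463, chromosome 15, 82147181 to 82205379) ran from 83.6 to 106.9 CPM with a median of 93.7 in R6/2 striatum, against 141.2 to 179 CPM with a median of 155.1 in WT striatum, with no overlap (-0.75 ± 0.06, edgeR adjusted p = 2.6e-13). In R6/2 cortex it ran from 132.3 to 156.8 CPM with a median of 142.7, against 151.04 to 199 CPM with a median of 185 in WT cortex (-0.33 ± 0.05, edgeR adjusted p = 5.5e-07). It did not pass in the cerebellum, at 94.6 to 120 CPM with a median of 111.7 in R6/2 and 102.2 to 130 CPM with a median of 121.4 in WT (-0.11 ± 0.06, edgeR adjusted p = 0.14). The liver showed no passing change either, with 50.4 to 71.7 CPM and a median of 59.3 in R6/2, against 44.4 to 69.9 CPM and a median of 58.3 in WT (0.08 ± 0.08, edgeR adjusted p = 0.5).

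Srebf1, the SREBP gene more tied to fatty acid synthesis (chromosome 11, 60199089 to 60222581), was higher in R6/2 than in WT in the 3 brain regions under vehicle. It ran from 52.8 to 85.9 CPM with a median of 72.2 in R6/2 striatum, against 45.6 to 68.1 CPM with a median of 58.5 in WT striatum (0.26 ± 0.09, edgeR adjusted p = 0.011, lost without replicate 2 at 0.062). The cortex gave 39.4 to 54.2 CPM with a median of 42.4 in R6/2, against 26.2 to 47.8 CPM with a median of 37.5 in WT (0.25 ± 0.07, edgeR adjusted p = 0.0027). In the cerebellum it ran from 39.7 to 61.6 CPM with a median of 53.4 in R6/2, against 33.7 to 48.7 CPM with a median of 42.8 in WT (0.32 ± 0.08, edgeR adjusted p = 0.00053). R6/2 and WT libraries overlapped in each region. Among animals given the drug the differences were 0.07 ± 0.09 in the striatum and -0.01 ± 0.07 in the cortex, and neither passed (edgeR adjusted p = 0.54 and 0.94). In the liver it ran from 160 to 430 CPM with a median of 262 in R6/2, against 86.5 to 464 CPM with a median of 312 in WT (-0.13 ± 0.25, edgeR adjusted p = 0.73). Scap fell in the striatum (-0.22 ± 0.06) and in the liver (-0.28 ± 0.07), the liver call lost without replicate 1 or 3 (edgeR adjusted p = 0.067 and 0.063). By FPKM neither fall of Scap passed, at -0.07 in the striatum (limma adjusted p = 0.39) and -0.10 in the liver (0.45).

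Of the liver X receptors, Nr1h3 (chromosome 2, 91184061 to 91202834) passed in the 3 brain regions and Nr1h2 in none of the 4 tissues. Nr1h3 ran from 3.18 to 4.82 CPM with a median of 4.03 in R6/2 striatum, against 2.32 to 4.37 CPM with a median of 2.82 in WT striatum (0.41 ± 0.09, edgeR adjusted p = 0.00017). In R6/2 cortex it ran from 2.53 to 3.52 CPM with a median of 3.01, against 1.94 to 3.24 CPM with a median of 2.45 in WT cortex (0.30 ± 0.09, edgeR adjusted p = 0.0039). The cortex call was lost among drug-given animals (0.17, edgeR adjusted p = 0.094) and in males alone (0.27, 0.075). All these groups overlapped at a low level. In the cerebellum, where the gene was higher, it fell (-0.39 ± 0.08, edgeR adjusted p = 0.00017).

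Of the 6 transport genes, 2 fell and 1 rose in the striatum, 2 fell and 3 rose in the cortex, 1 fell and 4 rose in the cerebellum, and 1 fell and 2 rose in the liver. Abca1, the transporter that hands sterol to apolipoproteins (ENSMUSG00000015243, chromosome 4, 53030787 to 53159895), ran from 84.8 to 129.99 CPM with a median of 106.4 in R6/2 striatum, against 44.6 to 80.2 CPM with a median of 70.2 in WT striatum (0.71 ± 0.08, edgeR adjusted p = 3.9e-09). In R6/2 cortex it ran from 60.6 to 89.5 CPM with a median of 73.6, against 37.3 to 58.1 CPM with a median of 45.97 in WT cortex (0.65 ± 0.07, edgeR adjusted p = 1.8e-09). In R6/2 cerebellum it ran from 113.9 to 138.6 CPM with a median of 130.01, against 84.4 to 107.2 CPM with a median of 90.9 in WT cerebellum (0.45 ± 0.06, edgeR adjusted p = 6.5e-08). In each brain region every R6/2 library exceeded every WT library, as for 7.72%, 6.19% and 7.55% of all genes there. In the liver the groups overlapped, with 140.3 to 206 CPM and a median of 173 in R6/2, against 137.4 to 386 CPM and a median of 187 in WT, and Abca1 did not pass (-0.16 ± 0.13, edgeR adjusted p = 0.36). The WT liver maximum of 386 CPM was the far library, male 5, and the next was 201 CPM.

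Apoe (ENSMUSG00000002985, chromosome 7, 19696109 to 19699188) differed in direction between regions. It ran from 449 to 844 CPM with a median of 648 in R6/2 striatum, against 671 to 945 CPM with a median of 821 in WT striatum (-0.37 ± 0.11, edgeR adjusted p = 0.0035). The cortex gave 420 to 620 CPM with a median of 564 in R6/2, against 561 to 809 CPM with a median of 670 in WT (-0.28 ± 0.06, edgeR adjusted p = 0.00028). In R6/2 cerebellum it ran from 540 to 863 CPM with a median of 705.5, against 403 to 645 CPM with a median of 589 in WT cerebellum (0.35 ± 0.09, edgeR adjusted p = 0.00086). The groups overlapped in all 3 regions. Among animals given the drug the cerebellum difference was 0.125 ± 0.086 and did not pass (edgeR adjusted p = 0.23). In the liver it ran from 8111 to 12347 CPM with a median of 8668 in R6/2, against 7891 to 11254 CPM with a median of 10104 in WT, with no passing change (-0.10 ± 0.10, edgeR adjusted p = 0.47).

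Stard4, which moves sterol between membranes, fell in the striatum (-0.40 ± 0.08), the cortex (-0.67 ± 0.07) and the cerebellum (-0.29 ± 0.06). Npc1, which moves cholesterol out of lysosomes together with Npc2, ran from 70.3 to 160 CPM with a median of 104.2 in R6/2 liver, against 95.5 to 172 CPM with a median of 134.2 in WT liver (-0.37 ± 0.12, edgeR adjusted p = 0.026). The call was lost without replicate 1, 3, 4 or 5 (0.17, 0.081, 0.087 and 0.074), and the groups overlapped. Npc2 averaged 90.5 ± 7.11 CPM in R6/2 liver, with a lowest library of 81.7, against 73.04 ± 11.6 CPM with a highest of 86.5 in WT liver (SD, n = 10 each; log2 0.32 ± 0.06, edgeR adjusted p = 0.00012). There 7 of 10 R6/2 libraries lay above all WT libraries. Abcg1, low in the liver, ran from 5.26 to 9.42 CPM with a median of 6.81 in R6/2 liver, against 3.67 to 7.54 CPM with a median of 5.23 in WT liver (0.42 ± 0.13, edgeR adjusted p = 0.013, lost without replicate 2 at 0.067 or replicate 3 at 0.11). In the brain, passing changes of Npc1, Npc2 and Abcg1 lay between 0.11 and 0.14, and those of Npc2 were lost without replicate 1, 2 or 5 in the cortex (edgeR adjusted p = 0.32, 0.072 and 0.05) and replicate 2 or 3 in the cerebellum (0.055 and 0.083).

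Turnover went through Cyp46a1 (ENSMUSG00000021259, chromosome 12, 108334381 to 108362234). It ran from 96.5 to 140.5 CPM with a median of 107.2 in R6/2 striatum, against 188 to 234 CPM with a median of 202 in WT striatum (-0.875 ± 0.058, edgeR adjusted p = 9.6e-16). In R6/2 cortex it ran from 99.7 to 126.3 CPM with a median of 114.2, against 135.8 to 187 CPM with a median of 162 in WT cortex (-0.51 ± 0.05, edgeR adjusted p = 3.3e-11). The cerebellum went the other way, with 31.6 to 38.9 CPM and a median of 34.95 in R6/2, against 25.2 to 30.9 CPM and a median of 28.5 in WT (0.32 ± 0.05, edgeR adjusted p = 3.9e-07). No region had an overlap between genotypes. Soat1 passed only in the cerebellum of the 4 tissues (-0.18 ± 0.08), a call lost without replicate 1, 2, 3 or 5 (edgeR adjusted p = 0.075, 0.42, 0.14 and 0.12).

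**Figure D3:**
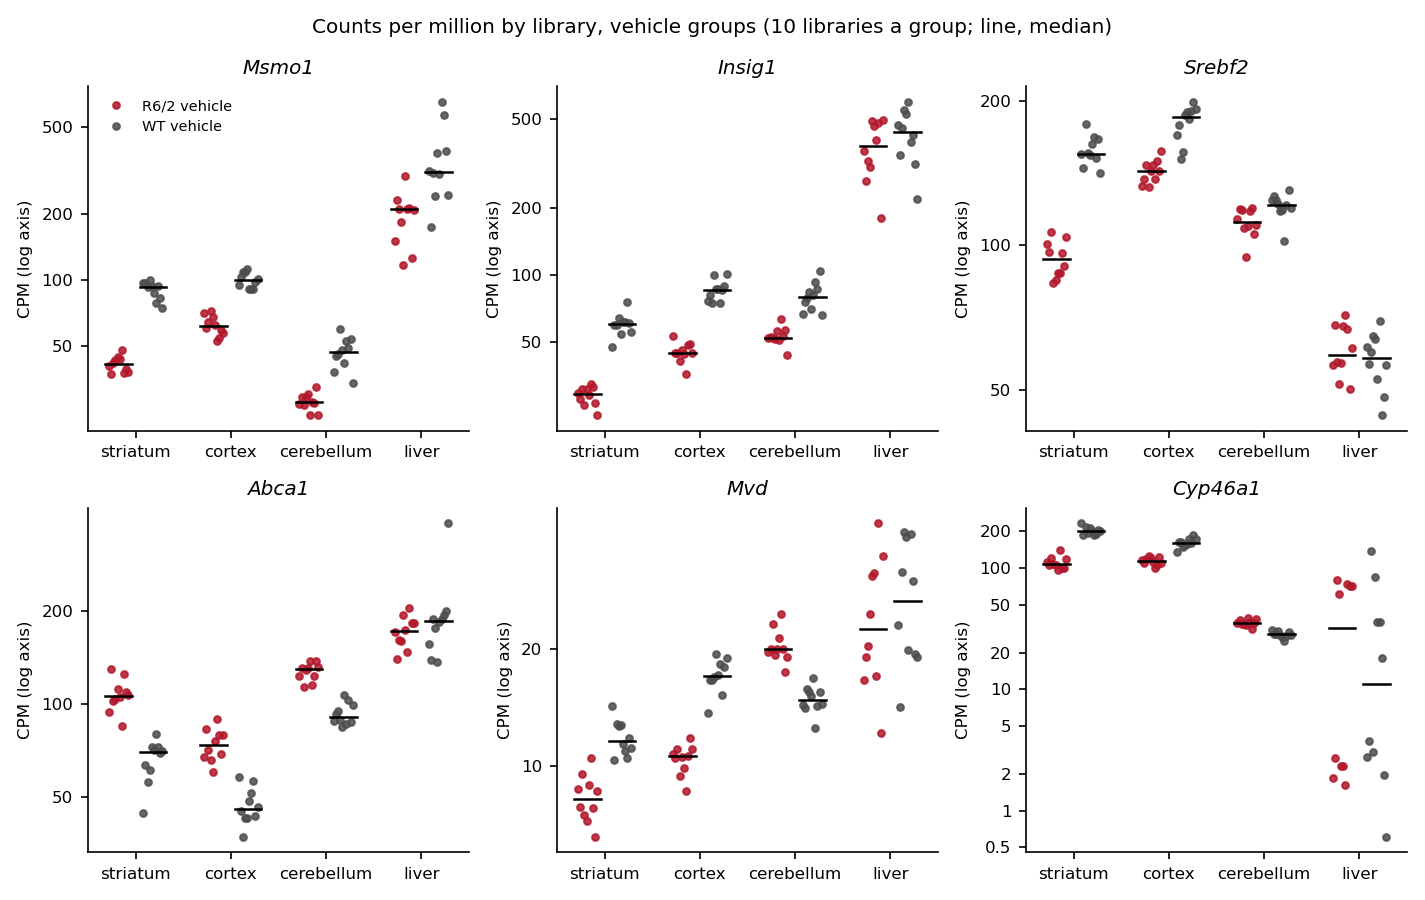
CPM (log axis) of 6 genes in each vehicle library, by tissue (x axis), with R6/2 in red left of WT in grey, 10 libraries a group and a line at the median; CPM were scaled within each tissue. Msmo1 and Insig1 are lower and Abca1 is higher in R6/2 in the 3 brain regions, while Mvd and Cyp46a1 change direction in the cerebellum.

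Liver Cyp46a1 varied widely among the libraries. Over the 40 liver libraries it ran from 0.547 to 137.5 CPM, and its widest gap on the log scale lay between 4.76 and 12.1 CPM, with 20 libraries below and 20 above. Any set of values has a widest gap, and whether the libraries form separate levels was not tested. A further gap lay between 0.612 and 1.32 CPM. Each group had libraries on both sides of the widest gap: 4 below and 6 above in R6/2 given the drug, 5 and 5 in R6/2 given vehicle, 6 and 4 in WT given the drug, and 5 and 5 in WT given vehicle. Both sexes had libraries on each side in every group. The genotype contrast of the liver had a correspondingly wide error (0.29 ± 0.99, edgeR adjusted p = 0.85).

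**Figure D4:**
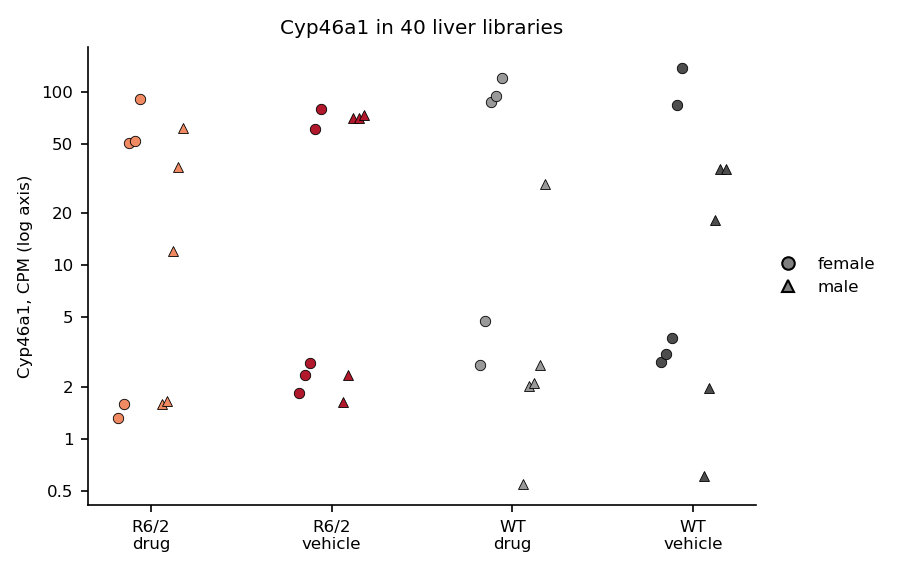
CPM of Cyp46a1 (log axis) in the 40 liver libraries by group (x axis), circles for females and triangles for males, 1 point a library. Every group has libraries below 4.76 CPM and above 12.1 CPM.

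The differences between tissues were then tested themselves, in the fit of 160 libraries. It treated the libraries as independent, because the labels do not say which come from the same animal. Where tissues share an animal, the p-values between tissues leave that pairing out. The genotype effect differed between brain and liver for 20 of the 34 genes, against 38.3% of 19446 genes. The brain effect was the mean of the 3 regional effects, so opposite effects offset each other in it. Mvd (-0.13 ± 0.17), Nr1h3 (0.14 ± 0.08), Apoe (-0.02 ± 0.11) and Cyp46a1 (-0.67 ± 0.56), whose directions differed between regions, did not pass. The fit of 160 libraries takes 1 spread per gene over all tissues, which can understate that of the liver. For Hmgcs1, Idi1 and Mvk the SE of the difference was 0.16, 0.131 and 0.13. In the liver fit alone the SE of their genotype effect was larger, at 0.249, 0.19 and 0.169. The calls against the liver can therefore be too liberal, and a test with a separate liver spread was not run. Without the 3 far libraries the calls of Dhcr7 (edgeR adjusted p = 0.077) and Stard4 (0.13) were lost. With no filter on low counts that of Dhcr7 was lost too (0.05). The brain effect lay below the liver effect for Insig1 (by -0.69 ± 0.14), Idi1 (-0.66 ± 0.13), Insig2 (-0.60 ± 0.08), Hmgcs1 (-0.52 ± 0.16), Soat1 (-0.52 ± 0.12), Srebf2 (-0.50 ± 0.07) and Abcg1 (-0.43 ± 0.08). It lay below for Acat2, Pmvk, Fdft1, Cyp51, Tm7sf2, Ebp, Dhcr7, Stard4 and Npc2 too, by -0.46 to -0.24. It lay above only for Abca1 (0.73 ± 0.11), Mvk (0.46 ± 0.13), Npc1 (0.45 ± 0.09) and Scap (0.22 ± 0.08). Msmo1, which fell in the liver too, is not among the 20.

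Between brain regions, 8 genes differed for striatum minus cerebellum, 9 for cortex minus cerebellum and 3 for striatum minus cortex, against 27.6%, 21.6% and 15.6% of genes. These shares of the 34 lie near or below those of all genes. Mvd differed in both comparisons with the cerebellum (-0.97 ± 0.21 for the striatum, -1.19 ± 0.21 for the cortex), as did Apoe (-0.72 ± 0.13 and -0.65 ± 0.13), Nr1h3 (0.79 ± 0.11 and 0.67 ± 0.11) and Ebp (0.57 ± 0.08 and 0.38 ± 0.08). Srebf2 fell more in the striatum than in the cerebellum (-0.63 ± 0.09) and than in the cortex (-0.40 ± 0.09), and Insig1 more than in the cerebellum (-0.46 ± 0.17, lost with no filter on low counts at an edgeR adjusted p of 0.056). Scap (-0.29 ± 0.09) and Tm7sf2 (0.38 ± 0.12) were the other 2 that differed between striatum and cortex. The fit shares 1 spread per gene over all 4 tissues, and liver Cyp46a1 ran over the wide range given above. In a fit of the 120 brain libraries alone, chosen after the data were seen, 15, 15 and 8 of the 34 passed, against 36.2%, 30.9% and 22.9% of 18581 genes. Cyp46a1 passed there for striatum minus cerebellum (-1.20 ± 0.07, edgeR adjusted p = 3.2e-28) and cortex minus cerebellum (-0.80 ± 0.07, 2.5e-17), but not in the fit of 160 libraries (-1.19 ± 0.69 and -0.84 ± 0.69, edgeR adjusted p = 0.21 and 0.44).

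Animals given the drug offer the same genotype comparison in other libraries of the same fit. There 20 of the 34 fell and 4 rose in the striatum, against 28.4% and 29.7% of genes, 21 fell and 3 rose in the cortex, against 27.9% and 29.2%, 17 fell and 8 rose in the cerebellum, against 26.7% and 27.9%, and 3 fell and 6 rose in the liver, against 13.7% and 15.1%. Of the genes that fell under vehicle, 17 of 17 fell again in the striatum, 21 of 21 in the cortex, 13 of 15 in the cerebellum and 2 of 4 in the liver. Of those that rose under vehicle, 4 of 5, 3 of 6, 7 of 9 and 3 of 3 rose again. Srebf1 in the cortex was the 1 passing gene whose sign turned. Abcg1 in the cortex (0.01, edgeR adjusted p = 0.74), Npc2 (0.07, 0.18) and Soat1 (-0.10, 0.27) in the cerebellum were lost there as well.

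Some further calls did not hold by FPKM or in 1 sex alone. By FPKM the difference was -0.09 for Acat2 and -0.09 for Soat1 in the cerebellum (limma adjusted p = 0.07 and 0.22), and -0.20 for Npc1 in the liver (0.29). In females alone, Apoe in the cortex (-0.20) and the cerebellum (0.26), Srebf1 in the cerebellum (0.23), and Msmo1 (-0.66), Abcg1 (0.25) and Npc2 (0.15) in the liver did not pass by edgeR. In males alone, Apoe (-0.31) and Srebf1 (0.20) in the striatum, Srebf1 (0.18) and Abcg1 (0.06) in the cortex and Scap in the liver (-0.16) did not pass. Each sex alone has 5 libraries a group, against 10 in the full comparison.

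The study asked what a single dose of CHDI-00340246 changed, and 0 of the 34 genes passed for the drug in any tissue. For drug minus vehicle over both genotypes, edgeR called 0% of all genes in the striatum, 0.188% in the cortex, 0.00581% in the cerebellum and 0% in the liver. Within R6/2 the shares were 0%, 0.125%, 0.0407% and 0.0726%, and within WT 0% in each tissue. DESeq2 called 0 of the 34 in each of these contrasts as well. For both genotypes together, 3, 2, 2 and 4 of the 34 had an unadjusted p under 0.05 in the striatum, cortex, cerebellum and liver. Within R6/2 the counts were 2, 1, 0 and 2, and within WT 1, 7, 3 and 8. Of the 17494, 17554, 17206 and 15145 genes tested in these tissues, 1435, 2138, 824 and 1234 reached such a p for both genotypes together. Within WT 633, 1816, 1079 and 483 did. Within R6/2 1117, 1276 and 1137 did in the striatum, cortex and liver, where members of the 34 reached it too. In the brain the estimates over both genotypes lay between -0.09 and 0.13 on the log2 scale. Among them Sc5d was highest in the cortex (0.125 ± 0.051) and the cerebellum (0.127 ± 0.055).

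In the liver of WT animals the estimates for synthesis genes ran 1 way without passing. Of the 19, 18 were below 0, with a median of -0.33 and a range of -0.53 to 0.02. An unadjusted p under 0.05 was reached by 7 of the 19, against 483 of all 15145 genes. Sqle stood at -0.53 ± 0.21, Mvk at -0.44 ± 0.17 and Fdft1 at -0.40 ± 0.14, each with an edgeR adjusted p of 1. In R6/2 livers 5 of the 19 were below 0, with a median of 0.02. The mean of the 19 by library ran from -0.73 to 0.48 in R6/2 given the drug, -0.48 to 0.35 in R6/2 given vehicle, -0.66 to 0.60 in WT given the drug and -0.52 to 0.69 in WT given vehicle. These ranges lie over each other, and the 19 genes of a library are not separate samples. The 95% interval of the drug effect in WT liver ran from -0.97 to 0.01 for Hmgcs1, which holds 0 as well as a large fall.

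The drug effect did not differ between R6/2 and WT for any of the 34 by edgeR (0% of all genes in each tissue), and 0, 4, 1 and 2 reached an unadjusted p under 0.05 in the striatum, cortex, cerebellum and liver. Over all genes 456 of 17494, 890 of 17554, 921 of 17206 and 382 of 15145 reached it. The genotype effect did not differ between females and males for any of the 34 either, with 0% of all genes called in the striatum, 0% in the cortex, 0% in the cerebellum and 4.28% in the liver, and with 2, 2, 0 and 2 of the 34 at an unadjusted p under 0.05. Of all genes tested, 1091, 1692, 540 and 2716 stood at such a p. DESeq2 was not run on these contrasts. Npc2 in the liver came nearest (-0.35 ± 0.12, females minus males, edgeR adjusted p = 0.078). In WT vehicle livers, females were higher than males in Npc2 (0.38 ± 0.08, edgeR adjusted p = 0.0018) and lower in Abca1 (-0.54 ± 0.18, edgeR adjusted p = 0.049), which makes 2 of 34, against 10.5% of genes. The Abca1 value includes the far library, a WT male at 386 CPM.

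Related genes outside the 34 were counted over 2 lists. Of 30 other sterol genes (bile acid enzymes, further transporters and receptors, proteases and lipases), 26 were tested in the striatum, of which 8 fell and 7 rose. The cortex had 5 lower and 11 higher of 25, the cerebellum 6 and 4 of 25, and the liver 5 and 4 of 28, and their medians lay between -0.04 and 0.06. Over all genes 26.5%, 26.9%, 26% and 12.8% fell in the striatum, cortex, cerebellum and liver. The shares that rose were 29.7%, 28.1%, 26.3% and 12.9%. The counts of other sterol genes lie near these shares in the striatum and the liver. Of 12 fatty acid genes under SREBP control, 8 fell and 2 rose in the striatum (median -0.46), 6 fell and 1 rose in the cortex (-0.16), 10 fell and 0 rose in the cerebellum (-0.30), and 0 fell and 3 rose in the liver (0.25).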

How the data were processed

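RNA-seq was deposited for 160 libraries as estimated counts and FPKM per gene. The authors' estimated counts, per the file headers, were used after rounding to whole numbers, since 74.8% of nonzero values were whole (tolerance 1e-06). The deposited FPKM values were used by group only: the expression profile of 13 of 160 FPKM columns lay nearest to the count column of the same name, and that of 160 of 160 to a column of the same group. The FPKM fit of a tissue therefore had means of genotype and treatment, without sex and without TMM scaling. CASAVA 1.8.2 is named in the submitters' processing notes; the aligner, counter and build were not given in the sources used here. Of 39179 identifiers, 37607 matched a symbol of GENCODE M21 on GRCm38.

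The 34 genes and all lists were chosen with earlier results of these data known. Genes whose library values are printed are the 3 largest passing rises and falls of each tissue, and Insig1, Hmgcs1, Srebf1, Srebf2, Abca1, Cyp46a1 and Apoe. Each tissue was fitted over its 40 libraries with edgeR 4.0.16 (R 4.3.3; TMM, filterByExpr, robust quasi-likelihood fit) with 8 means of genotype, treatment and sex, and all 160 libraries with 32 means for differences between tissues. Adjusted p-values are Benjamini-Hochberg over all genes of a fit, called under 0.05, and ± after a log2 fold change is its SE. Group numbers are 5 females and 5 males each, and totals of 28471097 to 46301273 estimated counts limit the precision of low genes. The fit was tested on simulated data. Alternatives were RLE factors, DESeq2 1.42.0, no filter, sex as an additive term, a replicate block, the L number of library names, limma 3.58.1 on log2(FPKM + 1) and log2(FPKM + 0.1), leaving out each replicate number, each sex alone, tissue fits subtracted from each other with no test, and, chosen after the data were seen, leaving out far libraries, the genotype effect among drug-given animals and a fit of the 120 brain libraries.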

Additional observations from a re-analysis of the deposited data

Results flagged for a closer look

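Among 88 groups of 10 libraries examined, 4 held 1 library apart from the rest by Dixon's ratio (the gap to the nearest library over the range), and chance marks about 1 in 20 groups. Nr1h3 in WT vehicle cortex had 3.24 CPM in male 2, against 2.58 for the next (ratio 0.506). Srebf2 in WT vehicle cerebellum had 102.2 CPM in male 2, against 118.2 for the next (0.568). Abca1 in WT vehicle liver had 386 CPM in male 5, against 201 for the next (0.743). Apoe in R6/2 vehicle liver had 12350 CPM in male 2, against 10100 for the next (0.530).

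Genotype effects differed between tissues by a test of the difference, on the log2 scale. Of the 34 genes this held for 20 in brain minus liver, 8 in striatum minus cerebellum, 9 in cortex minus cerebellum and 3 in striatum minus cortex. The 20 include Dhcr7 and Stard4, which did not pass without the 3 far libraries. The 1 spread per gene of this fit can understate that of the liver. Any pairing of tissues within an animal was left out of it. The brain effect was the mean of the 3 regions. For brain minus liver the differences were 0.731 for Abca1, 0.462 for Mvk, 0.448 for Npc1 and 0.217 for Scap. Those below 0 included Insig1 (-0.694), Idi1 (-0.659), Insig2 (-0.597), Hmgcs1 (-0.522), Soat1 (-0.519), Srebf2 (-0.50) and Abcg1 (-0.428). For striatum minus cerebellum the differences included -0.970 for Mvd, -0.722 for Apoe, -0.634 for Srebf2, -0.457 for Insig1, 0.572 for Ebp and 0.792 for Nr1h3. For cortex minus cerebellum they included -1.192 for Mvd, -0.650 for Apoe, 0.380 for Ebp and 0.670 for Nr1h3. For striatum minus cortex they were -0.397 for Srebf2, -0.288 for Scap and 0.382 for Tm7sf2.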

How the results depend on the processing

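Every passing genotype effect kept its sign in the alternatives run except Srebf1 in the cortex, at -0.007 among drug-given animals (edgeR adjusted p = 0.94). With RLE factors, DESeq2 or sex as an additive term, 22 of 22, 27 of 27, 24 of 24 and 7 of 7 passing genes passed again in the striatum, cortex, cerebellum and liver. By FPKM with either pseudocount, 10 genes rose in the striatum, 10 in the cortex and 5 in the liver, where 1 fell. Shares of all genes by FPKM or in 1 sex alone are not given here. Females alone gave 3 rises in the striatum, 4 in the cerebellum and 1 in the liver, where 1 fell, and males alone 2 rises in the cortex. Among drug-given animals 3 rose in the cortex and 6 in the liver. Without 1 replicate number, 16 to 18 fell and 4 to 5 rose in the striatum, 20 to 21 and 4 to 5 in the cortex, 13 to 15 and 7 to 8 in the cerebellum, and 1 to 4 and 2 to 4 in the liver. Without the 2 far liver libraries 6 fell and 4 rose there, and 1 gene passed for genotype by sex. With no filter on low counts, 1 gene passed for sex in WT liver and 5 for cortex minus cerebellum. In the 120 brain libraries alone, 15, 15 and 8 passed for striatum minus cerebellum, cortex minus cerebellum and striatum minus cortex. No drug effect passed under any alternative run. DESeq2, the replicate block and the leave-outs of replicates were run for genotype and drug effects only.

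Replicate numbers did not pair the libraries: residuals of same-numbered libraries correlated between -0.37 and 0.40. With the replicate block, 17 fell and 5 rose in the striatum, 20 and 6 in the cortex, 14 and 9 in the cerebellum and 4 and 3 in the liver. The smallest change detectable at this depth was not measured.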
